A study of Mus musculus with 23 samples.

Results

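The genes described here are 10 ERK feedback inhibitors, matched by gene symbol among the 27179 genes of the count table of a mouse liver RNA-seq study. They are the dual-specificity phosphatase genes *Dusp4*, *Dusp5* and *Dusp6*, the Sprouty genes *Spry1*, *Spry2* and *Spry4*, the Spred genes *Spred1*, *Spred2* and *Spred3*, and *Il17rd*, which encodes the protein Sef. The rule matched symbols alone and used no measured value, and all 10 were found. The members were, however, chosen with earlier results of these data known. RNA was taken from liver tissue without visible tumors of 15 female mice, 6 Ctrl, 6 ABpIF/+ and 3 ABpIF/F. All 15 mice carried Alb-Cre, a recombinase driven by the albumin promoter and so active in hepatocytes, and 2 floxed *Trp53* alleles, so that the Ctrl livers also lack p53 where Cre acts. Ctrl mice had wild-type *Braf* and 1 floxed *Icmt* allele. ABpIF/+ mice had in addition the conditional knock-in allele BrafCA, which encodes *Braf* V600E after Cre recombination, and ABpIF/F mice had this allele with 2 floxed *Icmt* alleles. The groups also differed in strain label, since 5 of the 6 Ctrl mice carry another one than all ABpI mice. Strain and genotype are thus largely confounded in each comparison with Ctrl. The genotype labels of the ABpI mice write *Braf* as +/+, whereas the study's own description gives BrafCA/+, which was followed here. *Icmt* encodes the enzyme that methylates the carboxyl end of prenylated proteins such as RAS. The ABpIF/F group has only 3 mice. The paper describes them as of different ages and all with liver tumors, which it saw in only a part of the ABpIF/+ mice. The labels tie no age to a mouse, so that age and genotype cannot be told apart.

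BRAF carrying V600E signals without RAS and phosphorylates MEK, which phosphorylates ERK. ERK in turn induces genes whose products restrain it. Because of this negative feedback, several of the members are widely used as transcriptional readouts of ERK activity. DUSP6 in the cytoplasm and DUSP4 and DUSP5 in the nucleus remove phosphate from ERK itself, Sprouty and Spred proteins act upstream at the level of receptors, RAS and RAF, and Sef is a transmembrane protein that restrains signaling from fibroblast growth factor receptors and holds back active ERK. In cells with BRAF V600E the feedback on RAS does not reach the mutant kinase, which does not need RAS.

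Reference sequence upstream of the transcription start was given by RefSeq (GRCm38.p6) for 8 of the 10 members. *Dusp4* and *Spry4* had no entry. The 250 bases before the start were searched on both strands for 4 motifs of transcription factors that act downstream of ERK. These were the AP-1 site TGANTCA, the cyclic AMP response element TGACGTCA, the ETS site CCGGAAG and the CArG box, the binding site of serum response factor, which contains no fixed centre and was matched by its usual definition. Over all 32851 promoters in the table, 6.75% held the AP-1 site, 1.55% the cyclic AMP response element, 6.91% the ETS site and 1.47% a CArG box. Among the 8 members only *Dusp5* held a match. It had 2 CArG boxes next to each other, at 82 to 73 and at 72 to 63 bases upstream of the start, and 2 or more CArG boxes occurred in 0.0183% of all promoters (6 of 32851). A match is a description of the letters and was not tested for binding, and a window without one says nothing about the factor elsewhere in the gene. The upstream windows of 3 members are shown, 5′ to 3′ on the strand of the gene and with motif matches in capitals. *Dusp5* is shown because it held the match, *Dusp6* because it had the highest level of the members and *Il17rd* because it differed between the ABpI groups. The windows are chr19:53528895-53529144 (plus strand) for *Dusp5*, chr10:99262981-99263230 (plus strand) for *Dusp6* and chr14:27038751-27039000 (plus strand) for *Il17rd*.

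Dusp5: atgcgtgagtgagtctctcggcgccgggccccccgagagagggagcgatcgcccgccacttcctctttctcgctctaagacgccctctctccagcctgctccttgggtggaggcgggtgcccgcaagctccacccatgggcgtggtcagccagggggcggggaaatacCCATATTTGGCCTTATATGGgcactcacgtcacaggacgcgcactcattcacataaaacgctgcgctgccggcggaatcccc
Dusp6: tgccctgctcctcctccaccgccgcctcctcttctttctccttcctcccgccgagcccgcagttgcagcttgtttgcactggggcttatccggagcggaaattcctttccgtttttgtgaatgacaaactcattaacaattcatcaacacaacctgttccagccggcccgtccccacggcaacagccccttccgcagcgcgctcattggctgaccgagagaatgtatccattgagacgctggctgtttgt
Il17rd: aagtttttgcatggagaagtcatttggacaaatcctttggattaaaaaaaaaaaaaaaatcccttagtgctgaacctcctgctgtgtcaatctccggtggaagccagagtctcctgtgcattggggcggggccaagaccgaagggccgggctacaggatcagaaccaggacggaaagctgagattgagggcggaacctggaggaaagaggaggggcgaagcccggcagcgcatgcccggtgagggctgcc

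The libraries held 24742910 to 32262649 reads assigned to genes. *Icmt* reached 27.8 to 34.7 CPM in Ctrl, 27.8 to 37.4 CPM in ABpIF/+ and 15.2 to 16.6 CPM in ABpIF/F livers, so that its RNA was lower in every ABpIF/F mouse than in any other mouse. CPM are counts per 1000000 reads after scaling of the libraries by edgeR's TMM method, and 1 CPM stood for 24.4 to 36.1 reads. *Trp53*, floxed in all 3 groups, was at 4.29 to 6.74 CPM in Ctrl, 12.3 to 16.8 CPM in ABpIF/+ and 9.78 to 12.4 CPM in ABpIF/F mice, so that its RNA was detected in every mouse and both ABpI groups lay above Ctrl. Reads were counted per gene and not per exon, so that this level does not check the deletion. All 10 hepatocyte markers were detected in each group, as in liver. Of the 6 Ctrl mice, 5 carry another strain label than the 9 ABpI mice, and only Ctrl mouse BG3 shares theirs. Mice are named as in the labels.

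Most of the ERK feedback inhibitors were higher in livers with *Braf* V600E than in Ctrl livers, whether 1 or 2 *Icmt* alleles were floxed. In ABpIF/+ vs Ctrl, 6 of the 10 members rose and 0 fell, against 4.69% of all genes tested that rose and 5.35% that fell. In ABpIF/F vs Ctrl, 6 members also rose and 0 fell, against 4.55% and 2.38% of all genes. At an unadjusted p under 0.05 there were 8 higher in the first and 9 in the second comparison and 0 lower. The share of all genes at that cutoff was not counted, here or for the later counts at it, so that these counts have no background. DESeq2 also called 6 up and 0 down in both, among 3084 and 2241 genes that it called in either direction. *Dusp4*, *Dusp5*, *Dusp6*, *Spry1* and *Spry2* rose in both comparisons, *Spry4* was called in the first and *Il17rd* in the second. Calls required a change of at least 2-fold with an adjusted p below 0.01 in edgeR's quasi-likelihood test, adjusted by Benjamini-Hochberg over all genes. All 10 members had a mean of at least 1 CPM over all mice together. In Ctrl alone *Dusp4* (0.914), *Dusp5* (0.520), *Spred3* (0.791) and *Il17rd* (0.840 CPM) had lower means and passed through ABpI mice. *Il17rd*, at a mean of 0.624 CPM in ABpIF/+, passed through ABpIF/F mice alone. The filter thus draws on the values compared, so that shares at that level are not an independent background. Among the 12316 genes at that level 8.21% rose and 9.39% fell in the first comparison. In the second 7.53% rose and 5.04% fell. The median log2 fold change of the members was 1.54 in ABpIF/+ vs Ctrl and 1.35 in ABpIF/F vs Ctrl, while the medians of the genes with at least 1 CPM were 0.017 and -0.00077. The comparisons share the 6 Ctrl mice and are therefore not independent of each other. The members were also chosen with earlier results of these data known, so that these counts and shares are a description.

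**Figure D1:**
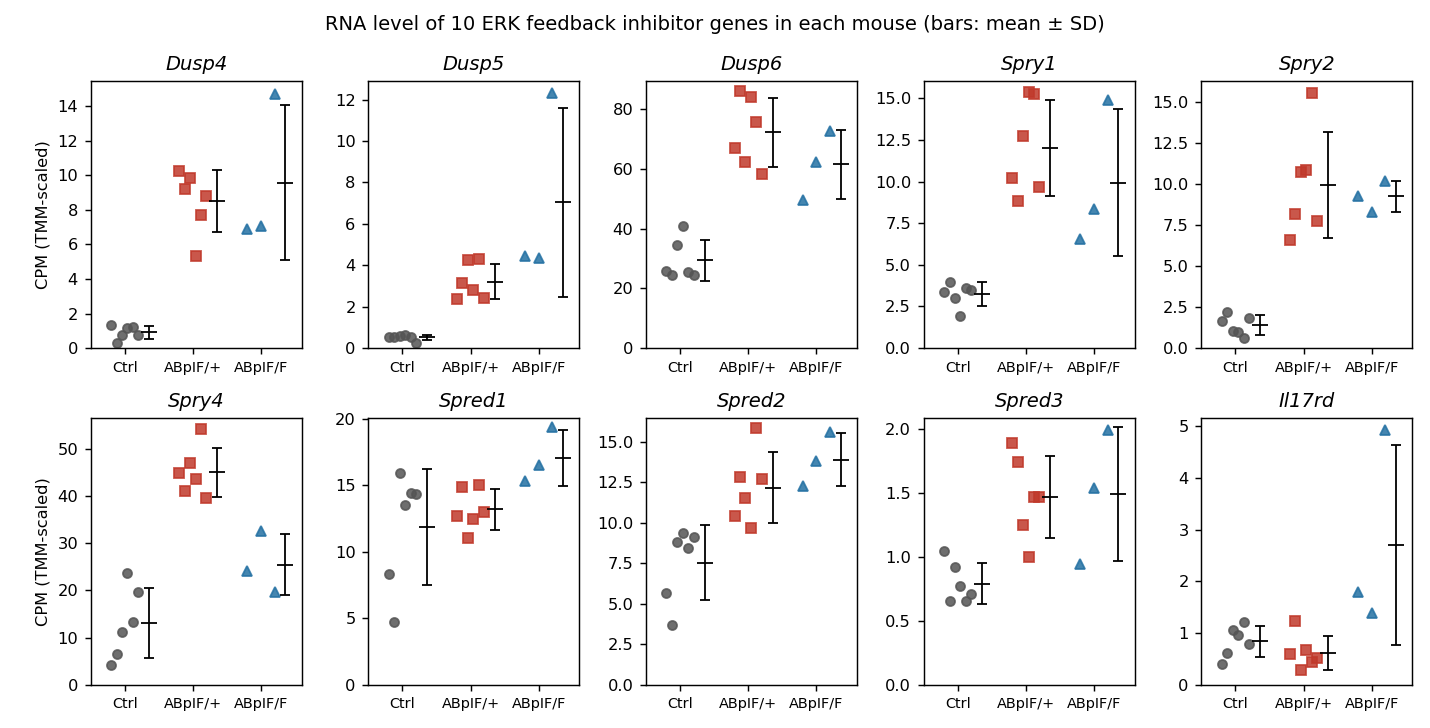
Levels of the 10 members in each mouse, in TMM-scaled CPM on linear axes from 0, for Ctrl (circles), ABpIF/+ (squares) and ABpIF/F (triangles). Bars give the mean ± SD of 6, 6 and 3 mice. All ABpI mice lie above all Ctrl mice for *Dusp4*, *Dusp5*, *Dusp6*, *Spry1*, *Spry2* and *Spred2*.

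*Dusp4* encodes a nuclear phosphatase that acts on ERK and also on JNK and p38. It had the largest fold change of the members in ABpIF/+ livers. Its level in Ctrl mice ran from 0.287 CPM over a median of 0.950 to 1.34 CPM, and in ABpIF/+ mice from 5.31 over 9.00 to 10.2 CPM. The 3 ABpIF/F mice had 6.92, 7.07 and 14.7 CPM. Every ABpI mouse was above every Ctrl mouse, and the highest value belonged to ABpIF/F mouse BG38. Its log2 fold change was 3.20 ± 0.29 (SE) in ABpIF/+ vs Ctrl (adjusted p = 3.02e-08) and 3.37 ± 0.31 in ABpIF/F vs Ctrl (adjusted p = 1.53e-07).

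*Dusp5* encodes a nuclear phosphatase specific for ERK. The Ctrl mice had 0.261 to 0.641 CPM with a median of 0.559, on 7 to 20 reads. ABpIF/+ mice ranged from 2.38 over 2.97 to 4.29 CPM, and ABpIF/F mice had 4.47, 4.36 and 12.3 CPM. The 3 groups did not overlap, with ABpIF/F above ABpIF/+ and ABpIF/+ above Ctrl. Its log2 fold change was 2.61 ± 0.30 in ABpIF/+ vs Ctrl (adjusted p = 5.98e-07) and 3.75 ± 0.33 in ABpIF/F vs Ctrl (adjusted p = 4.52e-08). An antisense gene shares 547 bases of the exons of *Dusp5* (22.1%) on the other strand, and the strand setting of the counting is not given in the sources used here.

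*Dusp6* encodes a cytoplasmic phosphatase specific for ERK. It was already well expressed in Ctrl livers, at 24.5 to 41.1 CPM with a median of 25.7, and reached 58.5, 71.4 and 86.3 CPM as the lowest, median and highest value of the ABpIF/+ mice. The ABpIF/F mice had 49.6, 62.3 and 72.7 CPM. All ABpI mice were above all Ctrl mice, but by less than for the other phosphatase genes. *Dusp6* changed by 1.30 ± 0.15 on the log2 scale in ABpIF/+ vs Ctrl (adjusted p = 4.59e-07) and 1.07 ± 0.17 in ABpIF/F vs Ctrl (adjusted p = 9.40e-05). The second value is close to the 2-fold limit and was under it without BG38 (0.93) or without ABpIF/+ mouse BG175 (1.00).

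*Spry1* and *Spry2* encode Sprouty proteins, which are recruited to the membrane after receptor activation and limit signaling to RAS. *Spry1* had 1.92 to 3.98 CPM in Ctrl mice (median 3.43) and 8.86 to 15.4 CPM in ABpIF/+ mice (median 11.5), and 6.56, 8.36 and 14.9 CPM in the ABpIF/F mice. Its log2 fold change was 1.90 ± 0.21 in ABpIF/+ vs Ctrl (adjusted p = 4.23e-07) and 1.63 ± 0.24 in ABpIF/F vs Ctrl (adjusted p = 4.24e-05). Neither ABpI group overlapped Ctrl. The model gene Gm42922 on the other strand shares 710 exonic bases (24.4%) with *Spry1*. *Spry2* rose from 0.591 to 2.21 CPM in Ctrl mice (median 1.33) to 6.60 to 15.5 CPM in ABpIF/+ mice (median 9.46). In the ABpIF/F mice it was at 9.27, 8.32 and 10.2 CPM, within the range of the ABpIF/+ mice. The log2 fold change of *Spry2* was 2.85 ± 0.27 in ABpIF/+ vs Ctrl (adjusted p = 6.73e-08) and 2.75 ± 0.30 in ABpIF/F vs Ctrl (adjusted p = 1.29e-06).

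*Spry4* encodes a Sprouty protein that acts on the activation of RAF. It was the member with the widest spread among Ctrl mice, from 4.28 over 12.3 to 23.6 CPM. The ABpIF/+ mice had 39.5 to 54.1 CPM with a median of 44.3, all above Ctrl. The ABpIF/F mice had 24.2, 32.6 and 19.7 CPM, which lay below all ABpIF/+ mice and overlapped the upper end of Ctrl. *Spry4* rose by 1.78 ± 0.33 on the log2 scale in ABpIF/+ vs Ctrl (adjusted p = 0.00112). In ABpIF/F vs Ctrl it was 0.95 ± 0.39, with a 95% interval from 0.11 to 1.79, and did not pass the test (adjusted p = 0.126). The difference between the ABpI groups, 0.82 ± 0.41 in ABpIF/+ vs ABpIF/F, did not pass either (adjusted p = 0.217), although the groups did not overlap.

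The Spred genes encode membrane-bound relatives of the Sprouty proteins. SPRED1 and SPRED2 bring the RAS inhibitor neurofibromin to the membrane. None of the 3 genes was called in either comparison with Ctrl. *Spred1* had 4.72 to 15.9 CPM in Ctrl (median 13.9), 11.0 to 15.0 CPM in ABpIF/+ (median 12.9) and 15.3, 16.5 and 19.4 CPM in ABpIF/F mice. Its range in ABpIF/+ lay inside that of Ctrl. The log2 fold change was 0.15 ± 0.21 (95% interval -0.29 to 0.59) in ABpIF/+ vs Ctrl and 0.52 ± 0.25 (-0.0077 to 1.05) in ABpIF/F vs Ctrl.

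*Spred2* had 3.69 to 9.33 CPM in Ctrl (median 8.64), 9.65 to 15.9 CPM in ABpIF/+ (median 12.1) and 12.3, 13.8 and 15.6 CPM in ABpIF/F mice, and neither ABpI group overlapped Ctrl. Its log2 fold change of 0.69 ± 0.19 in ABpIF/+ vs Ctrl (adjusted p = 0.00682) and of 0.88 ± 0.22 in ABpIF/F vs Ctrl (adjusted p = 0.00591) passed the p threshold, but both were under 2-fold. *Spred3* was low, at 0.653 to 1.04 CPM in Ctrl (median 0.739), 0.995 to 1.89 CPM in ABpIF/+ (median 1.47) and 0.946, 1.54 and 1.99 CPM in ABpIF/F mice. The ABpI groups reached higher values than Ctrl and overlapped it at their lower end. The log2 fold change of *Spred3* was 0.89 ± 0.27 in ABpIF/+ vs Ctrl (adjusted p = 0.0172) and 0.91 ± 0.32 in ABpIF/F vs Ctrl (adjusted p = 0.0525). *Ggn* on the other strand shares 202 exonic bases (3.25%) with *Spred3*.

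*Il17rd* was the member that differed between the ABpI groups. It had 0.409 to 1.21 CPM in Ctrl (median 0.873) and 0.282 to 1.24 CPM in ABpIF/+ mice (median 0.558), on 7 to 39 reads. In the ABpIF/F mice it was at 1.79, 1.39 and 4.93 CPM. All 3 were above every other mouse, and the highest of them, BG38, stood far above the other two. The log2 fold change was -0.44 ± 0.39 in ABpIF/+ vs Ctrl (95% interval -1.24 to 0.37, adjusted p = 0.523) and 1.68 ± 0.43 in ABpIF/F vs Ctrl (adjusted p = 0.00714). In ABpIF/+ vs ABpIF/F, which tests the difference between these 2 effects, it was -2.12 ± 0.43 (adjusted p = 0.00129), so that *Il17rd* was 4.34-fold lower in ABpIF/+. Without BG38 the log2 fold change was 0.91 in ABpIF/F vs Ctrl (adjusted p = 0.273) and -1.35 in ABpIF/+ vs ABpIF/F (adjusted p = 0.0582), and both calls were lost. The call against Ctrl was also lost without any single one of 6 other mice, Ctrl malpa387, BG3, malpa454, malpa458 or malpa462 or ABpIF/+ BG175, at adjusted p from 0.0106 to 0.0159.

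**Figure D2:**
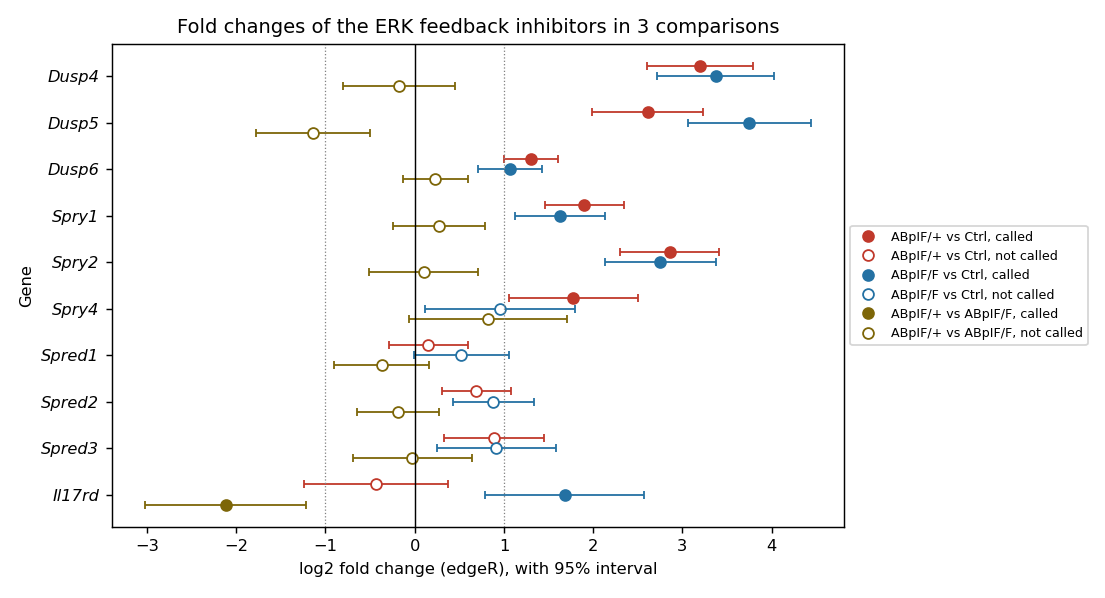
Log2 fold changes of the members (horizontal axis) with 95% intervals in ABpIF/+ vs Ctrl, ABpIF/F vs Ctrl and ABpIF/+ vs ABpIF/F. Filled points were called, open points were not, and dotted lines mark 2-fold. The phosphatase genes and *Spry1* and *Spry2* lie to the right of 0 in both comparisons with Ctrl, and *Il17rd* is the only filled point in ABpIF/+ vs ABpIF/F, at -2.12.

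The comparison of ABpIF/+ with ABpIF/F livers asks what the second floxed *Icmt* allele changes when *Braf* V600E is present in both groups. For most members it showed no call. Here 1 member was lower in ABpIF/+ (*Il17rd*) and 0 were higher, against 5.49% of all genes that were lower and 1.76% that were higher, or 8.5% and 3.72% of the genes with at least 1 CPM. At an unadjusted p under 0.05 there were 2 lower and 0 higher, and DESeq2 called these 2, among 2465 genes that it called in either direction. *Dusp5* was not called, at a log2 fold change of -1.14 ± 0.31 (adjusted p = 0.0112), and passed in DESeq2 (adjusted p = 0.00354). Without BG38 it was -0.46 (adjusted p = 0.432), and the log2 fold change of *Dusp5* in ABpIF/F vs Ctrl went from 3.75 to 3.07 without that mouse. Over all other settings its adjusted p ran from 0.00354 to 0.432. For *Dusp4* the 95% interval of the difference was -0.80 to 0.45, for *Dusp6* -0.14 to 0.60, for *Spry1* -0.24 to 0.79 and for *Spry2* -0.51 to 0.71, which leaves room for differences below 2-fold in either direction. There were 4 members that did not overlap between the ABpI groups. *Spry4* had higher values in ABpIF/+, as had 9.15% of all genes (19.2% of those with at least 1 CPM), and *Dusp5*, *Spred1* and *Il17rd* had lower ones, as had 9.54% of all genes (14.9%). Against Ctrl, 7 members lay higher without overlap in ABpIF/+ mice, as did 7.78% of all genes (15.5%), and 7 in ABpIF/F mice, as did 9.27% (15.1%). None lay lower without overlap, as 8.13% of all genes (15.8%) did in ABpIF/+ and 7.85% (16.5%) in ABpIF/F mice.

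The mice of a group did not all stand alike. BG38 had the highest ABpIF/F value of 9 members and the lowest of *Spry4*. Its log2 level over the Ctrl mean was 4.4 for *Dusp5* and 2.5 for *Il17rd*, against at most 3.0 and 1.1 in the other ABpIF/F mice. BG175 had the highest ABpIF/+ value for 5 members and the lowest for 0. Among Ctrl mice, BG3 lay below the other 5 for *Dusp4*, *Spred1* and *Spred2* and above them for *Spry1* and *Spry2*.

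**Figure D3:**
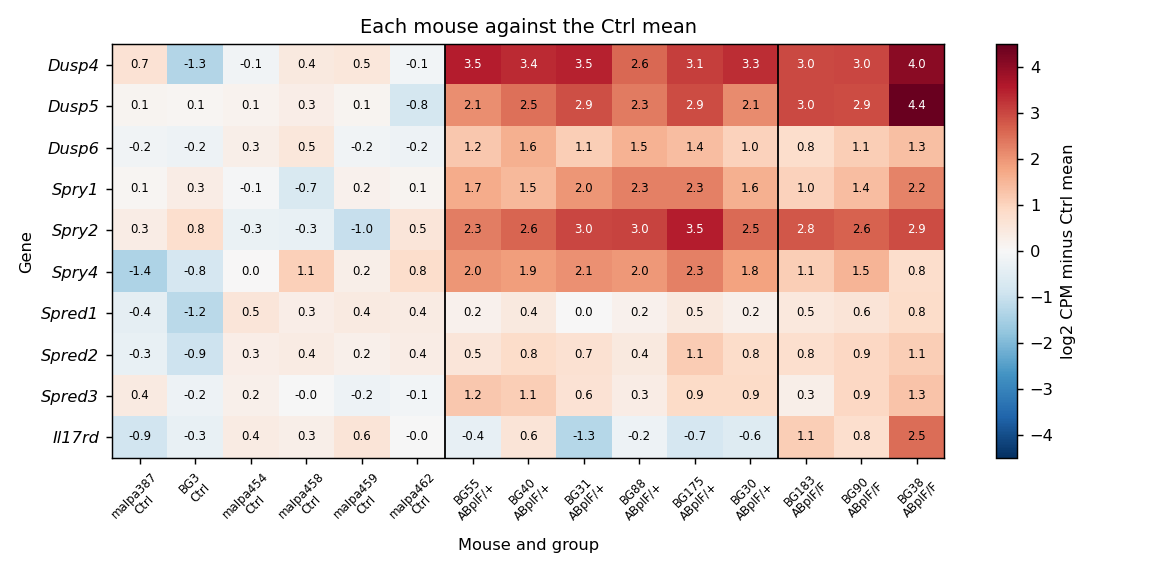
Log2 CPM (prior count 2) of each member in each mouse minus the mean of the Ctrl mice, printed in each cell and coloured from blue (lower) to red (higher). Black lines separate Ctrl, ABpIF/+ and ABpIF/F mice. The column of BG38 holds the highest values, 4.4 for *Dusp5* and 4.0 for *Dusp4*, and the row of *Il17rd* is above 0.7 in all ABpIF/F mice.

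BG3 matters because it is the Ctrl mouse with the strain label of the ABpI mice. Every ABpIF/F mouse was above BG3 for all 10 members, and every ABpIF/+ mouse for 9 members, all but *Il17rd*. With the strain label as a covariate, a fit in which Ctrl rests on BG3 alone, 5 members were called in each comparison with Ctrl, 3 of them shared with the fit without it. *Dusp4*, *Dusp6* and *Spry2* kept their call in ABpIF/+ vs Ctrl and *Dusp4*, *Dusp5* and *Dusp6* in ABpIF/F vs Ctrl. *Spred1* was then called at a log2 fold change of 1.48 and 1.85 and *Spred2* at 1.72 and 1.91, for the first and second comparison, while 6 calls were lost. In ABpIF/+ these were *Dusp5* (2.58, adjusted p = 0.0132), *Spry1* (1.59, adjusted p = 0.0204) and *Spry4* (2.77, adjusted p = 0.0263). In ABpIF/F they were *Spry1* (1.32, adjusted p = 0.0687), *Spry2* (2.06, adjusted p = 0.0149) and *Il17rd* (2.14, adjusted p = 0.135). For the other 5 Ctrl mice strain label and genotype cannot be told apart.

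Levels of different genes were compared only per kb of exons. *Dusp6* was the most abundant member in every group, at 9.38 ± 2.2 CPM per kb (SD, n = 6) in Ctrl, 23.1 ± 3.70 (n = 6) in ABpIF/+ and 19.6 ± 3.70 (n = 3) in ABpIF/F livers, and did not overlap the next gene in any of them. *Spry4* came second in each group, with 2.76 ± 1.56, 9.47 ± 1.09 and 5.36 ± 1.38 CPM per kb. In Ctrl *Spred1* (1.75), *Spred2* (1.63), *Spry1* (1.11), *Spry2* (0.665), *Dusp4* (0.333), *Dusp5* (0.210), *Spred3* (0.127) and *Il17rd* (0.0765 CPM per kb) followed, and each of these overlapped its neighbours in that order, *Spry4* and *Spred1* included. In ABpIF/+ *Spry2* (4.77), *Spry1* (4.14) and *Dusp4* (3.11 CPM per kb) stood above *Spred2* (2.63) and *Spred1* (1.95), with overlapping neighbours, while *Spry4* did not overlap *Spry2*. *Dusp5* (1.30) did not overlap *Spred3* (0.236), nor *Spred3* *Il17rd* (0.0568 CPM per kb). In ABpIF/F all genes from *Spry4* to *Spred1* (2.52 CPM per kb) overlapped their neighbours, and *Il17rd* (0.246) and *Spred3* (0.240 CPM per kb) came last, below *Spred1* without overlap. *Spred1* was in place 3 of 10 in Ctrl and in places 7 and 8 in ABpIF/+ and ABpIF/F, while *Spry2* was in place 6 in Ctrl and in place 3 in both ABpI groups, and *Dusp4* in place 7 in Ctrl and in places 5 and 4.

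**Figure D4:**
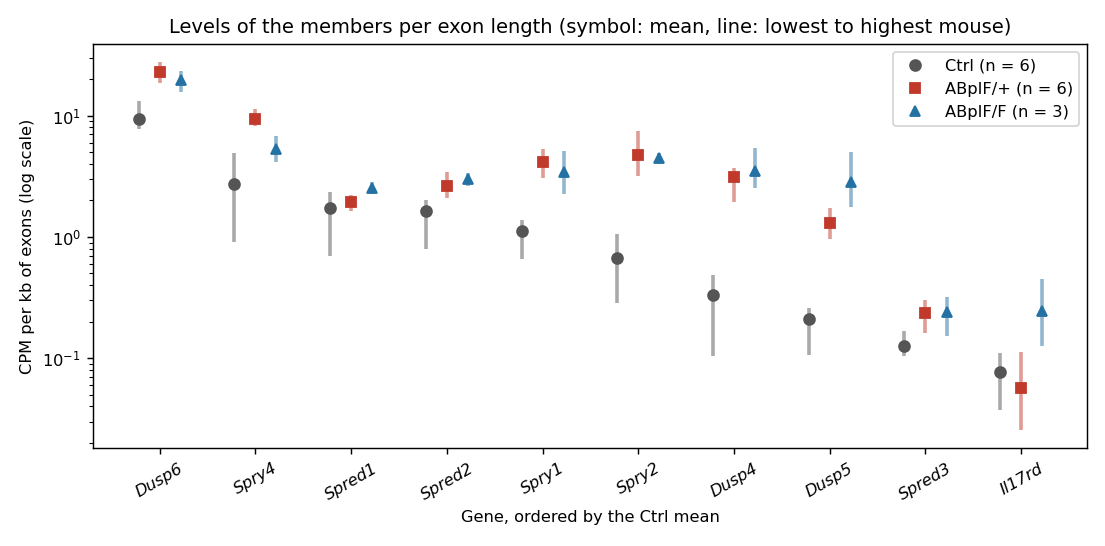
Levels of the members in CPM per kb of exons on a log axis, ordered by the Ctrl mean. Symbols give the mean of 6 Ctrl, 6 ABpIF/+ and 3 ABpIF/F mice and vertical lines run from the lowest to the highest mouse. *Dusp6* is first in all groups, with means of 9.38, 23.1 and 19.6 CPM per kb, and *Spred3* and *Il17rd* are the lowest.

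The members were set beside the other genes of the pathway. Of the 7 other MAP kinase phosphatases, 2 rose in ABpIF/+ vs Ctrl, *Dusp9* (log2 fold change 3.43 ± 0.42) and *Dusp7* (1.22 ± 0.15), both of which encode cytoplasmic ERK phosphatases of the *Dusp6* type. In ABpIF/F vs Ctrl 2 rose, *Dusp9* (2.87 ± 0.47) and *Dusp10* (1.25 ± 0.22), which acts on JNK and p38. The mean of *Dusp9* in Ctrl was only 0.154 CPM, so that its fold changes against Ctrl are imprecise. *Dusp10* was lower in ABpIF/+ than in ABpIF/F (-1.04 ± 0.22), the 1 call of the list there. There was 0 without BG38, without BG40, without BG88 or with a score of clock genes as a covariate. The median of the list was 1.22 and 1.06 against Ctrl and 0.26 between the ABpI groups. The 17 genes of the core of the cascade, which encode a receptor, adaptors, RAS, RAF and the kinases below them, held 0 calls in either comparison with Ctrl, with medians of 0.06 and -0.05. At an unadjusted p under 0.05 there were 4 higher and 6 lower in ABpIF/+ and 1 higher and 3 lower in ABpIF/F, and DESeq2 also called 0. In ABpIF/+ vs ABpIF/F the scaffold gene *Ksr1* was lower (-1.16 ± 0.30, adjusted p = 0.00866), a call that was lost in 15 of 26 other settings, leaving out any 1 of the ABpI mice among them. Of 12 other inhibitors of the pathway, *Pebp1*, whose product binds and restrains RAF, fell by 1.52 on the log2 scale in ABpIF/+ vs Ctrl and by 1.20 in ABpIF/F vs Ctrl. In each of these comparisons 5 of the 12 were higher and 2 lower at an unadjusted p under 0.05, and 0 were called up by edgeR or DESeq2. DESeq2 called 2 down in ABpIF/+ vs Ctrl and 1 in ABpIF/F vs Ctrl. *Cbl*, a ubiquitin ligase for receptors, was lower in ABpIF/+ than in ABpIF/F (-1.57 ± 0.36) but not called without BG38, and *Spry3* had no read in any mouse.

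Of 16 other genes known to be induced by ERK signaling, 7 rose and 2 fell in ABpIF/+ vs Ctrl. *Fos* (4.04 ± 0.27), *Egr1* (3.86 ± 0.82), *Etv4* (3.45 ± 0.45) and *Ier3* (2.83 ± 0.29) had the largest rises, and the first 3 encode transcription factors. The cyclin gene *Ccnd1* fell by 4.22 on the log2 scale, from a mean of 140 to 7.52 CPM, and *Emp1* fell by 2.22 from a low level (0.886 to 0.187 CPM). In ABpIF/F vs Ctrl 5 rose and 1 fell. *Etv4* (5.14 ± 0.48), *Epha4* (2.67 ± 0.42), *Fos* (2.59 ± 0.30), *Ier3* (2.14 ± 0.32) and *Etv5* (1.07 ± 0.21) rose, and *Ccnd1* fell by 1.89. The Ctrl means of *Etv4*, *Epha4*, *Fos* and *Ier3* were only 0.121, 0.172, 0.748 and 0.968 CPM. Their fold changes against Ctrl are therefore imprecise in both comparisons. Between the ABpI groups 2 were higher and 3 lower in ABpIF/+. *Fos* (1.45 ± 0.30) and the immediate early gene *Ier2* (1.13 ± 0.19) were higher, and *Emp1* (-3.66 ± 0.51), *Ccnd1* (-2.33 ± 0.30) and *Etv4* (-1.69 ± 0.40) were lower. *Emp1* in the first comparison and *Etv5* were named after their values were seen. The median of the list was 1.62 and 1.42 against Ctrl and -0.17 between the ABpI groups. Its 2 genes with 3 counts or fewer in every Ctrl library were then set to their bound. The bound was replaced by 0 where the ABpI libraries were also that low. The medians against Ctrl became 0.33 and 1.04. Between the ABpI groups 1 gene was that low in both, and with it at 0 the median was 0.060. The genes of this list thus moved in both directions. Of the 10 members 0 fell in either comparison with Ctrl. Among the genes with at least 1 CPM only 9.39% fell in ABpIF/+ and 5.04% in ABpIF/F, so that this count does not set the members apart.

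**Figure D5:**
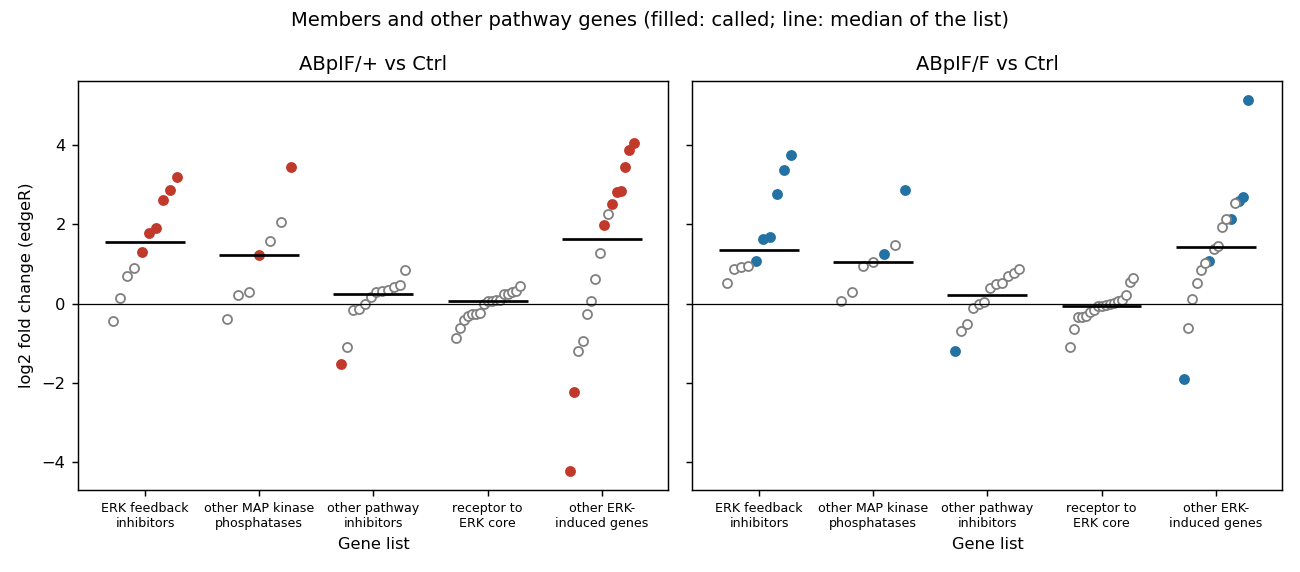
Log2 fold changes of the 10 members and of 4 other lists of pathway genes (7, 12, 17 and 16 genes) in ABpIF/+ vs Ctrl (left) and ABpIF/F vs Ctrl (right). Filled points were called, open points were not, and black lines give the list medians, which are 1.54 and 1.35 for the members and 0.06 and -0.05 for the core of the cascade.

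The genes whose levels ran most like those of a member over the 15 mice were found by Pearson's r of log2 CPM among 12210 genes. These values are descriptions, since the mice of a group share a genotype. For *Dusp6* they were *Tmem71* (0.957), *Klhl13* (0.957) and *Dsg1c* (0.953). For *Spry4* they were *Tmem184c* (0.959), *Fam3c* (0.959) and *Hs2st1* (0.945), and for *Spred1* *Megf9* (0.945), *Prrc2c* (0.944) and *Kmt2e* (0.931). For *Il17rd* they were *Myof* (0.921), *Add1* (0.905) and *Iqce* (0.893).

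Markers of liver cell types moved with the groups, and in bulk tissue a change in the number of cells of a type and a change in the RNA per cell cannot be told apart. The summed level of the 10 hepatocyte markers was 107941 to 146480 CPM in Ctrl, 192422 to 267950 CPM in ABpIF/+ and 140243 to 238033 CPM in ABpIF/F mice, without overlap between Ctrl and ABpIF/+. *Alb*, which was not called, made up most of this sum, with means of 89159, 153783 and 144110 CPM. Of the 10 markers 3 rose in ABpIF/+ vs Ctrl and 1 rose and 1 fell in ABpIF/F vs Ctrl. In ABpIF/+ vs Ctrl *Ttr* (-0.81), *Cps1* (-0.61) and *Apob* (-0.11) were lower without a call, and the others were higher. Of 10 markers of bile duct cells, 2 rose and 1 fell in ABpIF/+ vs Ctrl and 8 rose in ABpIF/F vs Ctrl. Their summed level was 51.9 to 90.6 CPM in Ctrl, 55.7 to 180 CPM in ABpIF/+ and 244 to 1239 CPM in ABpIF/F mice, highest in BG38. *Spp1* alone made up most of this sum, with means of 43.8 CPM in Ctrl, 66.9 in ABpIF/+ and 660 in ABpIF/F. Among the ABpIF/F mice BG38 was thus highest in this sum and for 9 members. It was also highest among them in the sums of stellate cell and fibroblast, macrophage, lymphocyte and neutrophil markers given below. In the endothelial sum it was not, with 298 CPM against 369 CPM in BG183. Of 10 markers of stellate cells and fibroblasts, 8 fell in ABpIF/+ vs Ctrl and 0 changed in ABpIF/F vs Ctrl (185 to 252 CPM in Ctrl, 42.4 to 90.7 in ABpIF/+, 166 to 289 in ABpIF/F). Of 10 macrophage markers 6 fell in ABpIF/+ (358 to 506 CPM in Ctrl, 149 to 262 in ABpIF/+, 301 to 680 in ABpIF/F), and of 10 endothelial markers 2 fell (233 to 340, 112 to 246 and 263 to 369 CPM). Lymphocyte markers were low throughout (4.24 to 7.92, 1.17 to 3.07 and 5.64 to 15.5 CPM), and 3 of 10 fell in ABpIF/+. Of 8 neutrophil markers 7 rose in ABpIF/F vs Ctrl, from 2.40 to 4.29 CPM in Ctrl to 4.70 to 87.0 CPM, again highest in BG38, and *Ly6g* was at 0 in every Ctrl mouse. The part of these cells in the values of the members was not tested. A score of clock genes, high where genes of the *Bmal1* phase are high, went with the ABpIF/F group. It was at least 0.886 in the ABpIF/F mice, -1.05 to -0.063 in ABpIF/+ mice and -1.42 to 2.47 in Ctrl mice, below 0 in 5 of 6 Ctrl mice. With it as a covariate the counts of called members were again 6, 6 and 1, while the calls over all genes in ABpIF/+ vs ABpIF/F went from 1969 to 980.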

How the data were processed

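Stranded mRNA libraries of total RNA from frozen liver were sequenced from both ends. Per the labels and the paper's methods, the authors aligned reads to mm10 with HISAT2 and counted them with featureCounts 2.0.8. The deposited values are raw counts per gene without normalization, 1 column per mouse, although 23 samples are listed and 8 mice are named by 2 of them. The counts came from the table whose columns all carry mouse names. The other table gave the symbols, its 10 named columns held the same counts, and its 5 count columns headed by bare numbers were not used. The authors' deposited fold changes and p-values were not used. Each mouse is 1 replicate.

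The fits used edgeR 4.0.16 under R 4.3.3, all 27179 genes, TMM scaling and 1 robust quasi-likelihood fit of the 3 groups in its legacy form. P-values were adjusted by Benjamini-Hochberg over all genes. SE is the log2 fold change divided by the square root of F. Intervals are 95% intervals. Depth was 24742910 to 32262649 counts per mouse, and 1 CPM was 24.4 to 36.1 reads, so that levels under 1 CPM are imprecise. The fit was checked on simulated counts. Exon lengths and positions came from GENCODE M21 (GRCm38).

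The members and lists were chosen with earlier results of these data known. All members are named. Single values of 2 genes of the other lists are not reported here. Of each pathway list up to 4 called genes per direction with a mean of at least 1 CPM in 1 group are named, and for the highest member of each family and *Il17rd* the 3 most alike genes. Alternatives were RLE size factors, library totals, DESeq2 1.42.0, filterByExpr, the edgeR 4 method, no robust estimation, an adjusted p under 0.05, a 4-fold limit, fits of the 2 groups compared, strain label or clock score as a covariate, and leaving out each mouse.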

Additional observations from a re-analysis of the deposited data

Results flagged for a closer look

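Among 20 groups of 6 mice examined, 1 held a value far from the rest, as about 1 in 20 would by chance. The *Dusp5* level of Ctrl mouse malpa462 was 0.261 CPM, where the next lowest Ctrl mouse had 0.533 CPM. The gap made up 0.715 of the range of the Ctrl mice, above the limit of 0.625 for 6 samples. Without this mouse *Dusp5* passed the test in ABpIF/+ vs ABpIF/F, at a log2 fold change of -1.14 (adjusted p = 0.00973), and without ABpIF/F mouse BG38 it was -0.46 (adjusted p = 0.432).

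The change of *Il17rd* against Ctrl differed between ABpIF/+ and ABpIF/F livers, by -2.12 on the log2 scale in the test of the difference (edgeR, adjusted p = 0.00129). It was lower in 6 of 6 ABpIF/+ mice than in any of the 3 ABpIF/F mice. The adjusted p over the other settings lay between 5.65e-05 and 0.0582, the latter without ABpIF/F mouse BG38.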

How the results depend on the processing

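The called members stayed the same in number in both comparisons with Ctrl under RLE size factors, library totals, DESeq2, filterByExpr, the edgeR 4 method, no robust estimation, an adjusted p under 0.05, fits of 2 groups and the clock score. With a 4-fold limit 3 were called in each, by construction. With the strain label as a covariate 5 were called in each. In ABpIF/+ vs ABpIF/F 2 members, *Il17rd* and *Dusp5*, were called under library totals, DESeq2, filterByExpr, the edgeR 4 method and an adjusted p under 0.05, and the cause was not tested. Leaving out 1 mouse gave 6 to 6 called members in ABpIF/+ vs Ctrl, 4 to 6 in ABpIF/F vs Ctrl and 0 to 2 in ABpIF/+ vs ABpIF/F. In ABpIF/F vs Ctrl 4 were called without BG38 or without BG175, in ABpIF/+ vs ABpIF/F 0 were called without BG38, and 2 came without malpa462, BG183 or BG90. Members without overlap between groups numbered 7 to 8, 7 to 9 and 4 to 5 when 1 mouse was left out. With library totals there were 6 in ABpIF/+ vs Ctrl. Library totals moved the median of genes with at least 1 CPM to -0.16 in ABpIF/+ vs Ctrl and -0.15 in ABpIF/+ vs ABpIF/F.

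The sign turned only for values that were called in neither setting. In ABpIF/+ vs Ctrl *Spred1* was -0.033 with library totals and -0.011 without BG3 (to 0.25 over the mice left out), and *Il17rd* 0.018 with the strain label. In ABpIF/+ vs ABpIF/F *Dusp4* was 0.071 with the clock score and -0.36 to 0.28 over the mice left out, *Spry2* -0.097 with library totals and -0.030 (without BG175) to 0.20, and *Spred3* 0.010 with filterByExpr, 0.26 with the clock score and -0.27 to 0.24 over the mice left out, above 0 without BG31, BG88, BG175 or BG38. Of the other pathway lists, the other MAP kinase phosphatases called in ABpIF/+ vs Ctrl numbered 2, 4 with DESeq2 or an adjusted p under 0.05 and 1 with the strain label, and the other ERK-induced genes fell from 9 to 5 in ABpIF/+ vs Ctrl and from 6 to 2 in ABpIF/F vs Ctrl with the strain label. No paired analysis was possible because the numbers in the sample titles tell apart 2 samples of 1 mouse and pair no mice across groups, and each column is 1 mouse. The other deposited table was not run as a fit of its own. *Dusp4*, *Dusp5*, *Spred3* and *Il17rd* had as few as 7, 7, 16 and 7 reads in a mouse. The largest SE of the log2 fold change were those of *Il17rd* and *Spry4* in every comparison, 0.39 and 0.33 in ABpIF/+ vs Ctrl.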
